A study of Mus musculus with 14 samples.

Results

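The collagen genes of mouse liver were followed across 2 genotypes and 2 treatments. All gene symbols in the count files made of Col, a number, the letter a and a second number were taken as members, which gave 44 of 24411 genes. The rule reads symbols alone, but it was set with earlier results of these data known. They were divided by protein class into 11 fibrillar collagens, 6 collagens of the basement membrane network (type IV) and 27 others. The study measured RNA, labelled as polyadenylated, from livers of male littermates aged 5 to 7 months, 8 h after 1 intraperitoneal injection of 500 µl. Every mouse carried Rbbp5 (flox/flox). Those called WT had no Alb-Cre, and those called LKO (spelled RRBP5 LKO in the sample labels) had Alb-CRE (+/-), which is driven by the albumin promoter and used to delete genes in hepatocytes. Deletion in each liver cell type was not measured here. Rbbp5 encodes a core subunit of the enzymes placing methyl groups on lysine 4 of histone H3. The injection held tunicamycin, which blocks the addition of N-linked sugars to new proteins and so stresses the endoplasmic reticulum, at 0.05 mg/kg in 3% DMSO in PBS, or 3% DMSO in PBS alone as vehicle. Libraries numbered 3 for each WT group and 4 for each LKO group, and reads of LKO vehicle libraries 3 and 4 were summed as 1 sample because they differed by little more than counting noise.

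Collagens are secreted proteins whose chains wind into a triple helix inside the endoplasmic reticulum before export. Types I, III and V build the fibrils of the interstitial matrix, type IV builds the sheet of the basement membrane, type VI builds beaded microfibrils between them, and type XVIII carries heparan sulphate chains and the fragment endostatin. In liver, stellate cells and portal fibroblasts are the main known source of fibrillar collagen, which accumulates as scar in fibrosis, and hepatocytes are a known source of type XVIII. RNA was extracted from whole liver, so for every value below a change in the number of cells of a type and a change in the RNA of each cell cannot be told apart.

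Promoter sequences are printed for 4 of the members that carry the results: Col1a2, Col3a1 and Col6a3, which were higher in LKO livers, and Col27a1, which was lower after tunicamycin. Col1a1 and Col5a2, also higher in LKO livers, had no promoter sequence in the source used. Each line holds the 250 bases before the annotated start, from RefSeq on GRCm38.p6. Capitals mark matches, on either strand, to any of 3 motifs that do not overlap each other here. They are the CCAAT box, searched as those letters, the TATA box, searched as TATAAA, and the GC box, searched as GGGCGG. The positions are chr6:4505368-4505617 on the plus strand for Col1a2, chr1:45311288-45311537 on the plus strand for Col3a1, chr1:90843972-90844221 on the minus strand for Col6a3 and chr4:63215162-63215411 on the plus strand for Col27a1.
Col1a2: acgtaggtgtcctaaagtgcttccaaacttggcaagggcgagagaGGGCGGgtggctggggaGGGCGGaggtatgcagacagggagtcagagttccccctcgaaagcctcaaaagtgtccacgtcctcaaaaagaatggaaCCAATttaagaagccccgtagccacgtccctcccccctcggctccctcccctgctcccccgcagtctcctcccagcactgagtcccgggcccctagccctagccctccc
Col3a1: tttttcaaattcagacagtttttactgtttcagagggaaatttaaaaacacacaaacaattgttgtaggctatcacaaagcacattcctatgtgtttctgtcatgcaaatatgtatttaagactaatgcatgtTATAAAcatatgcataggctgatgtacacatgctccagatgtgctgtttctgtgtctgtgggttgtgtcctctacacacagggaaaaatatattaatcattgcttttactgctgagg
Col6a3: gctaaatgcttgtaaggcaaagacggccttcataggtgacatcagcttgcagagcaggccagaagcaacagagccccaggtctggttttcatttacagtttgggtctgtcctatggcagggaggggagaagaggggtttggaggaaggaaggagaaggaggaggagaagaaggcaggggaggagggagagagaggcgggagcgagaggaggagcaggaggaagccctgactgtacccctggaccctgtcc
Col27a1: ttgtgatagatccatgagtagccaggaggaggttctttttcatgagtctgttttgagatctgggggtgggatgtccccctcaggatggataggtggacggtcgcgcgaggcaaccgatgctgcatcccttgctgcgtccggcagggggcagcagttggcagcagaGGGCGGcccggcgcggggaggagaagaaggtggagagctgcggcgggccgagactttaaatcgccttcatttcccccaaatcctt
Counted from the start, the Col1a2 window had its CCAAT match at -109 and GC box matches at -205 and -188. Col3a1 had a TATA box match at -117, and Col27a1 had a GC box match at -85. These letters were not found in the Col6a3 window. The base composition also differed, with 35.2% G and C for Col3a1 against 62% for Col1a2, 57.2% for Col6a3 and 59.6% for Col27a1. Of the 44 members, 35 had a window in the table. GGGCGG was in 21 of them, against 32.74% of all 32851 windows. CCAAT was in 13, against 33.85% of all windows, and TATAAA was in 5, against 12.37%. The ER stress response element, which factors of the unfolded protein response bind, was in 0 of the 35, against 0.1126% of all windows. A match describes letters and not a site in use.

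Sense-strand reads on genes ranged from 6507018 to 13519421 per library, of which 72.5 to 75.5% fell on the 45S ribosomal RNA gene Rn45s, leaving 1704479 to 3551398. That share is high for RNA labelled as polyadenylated, and its cause was not tested. Collagen reads numbered from 1273 to 4085 per library, and from 334 to 1406 without Col18a1, so many members rest on few reads. Without molecular identifiers, limits from counts cover counting error only. Rbbp5 checked the genotype labels, at 5.19 ± 1.17 CPM (reads scaled to a common normalised library size; SD, n = 3) for WT with vehicle and 5.36 ± 0.342 (n = 3) after tunicamycin, against 2.94 ± 1.13 (n = 3) for LKO with vehicle and 2.86 ± 0.597 (n = 4) after tunicamycin. The library labelled LKO vehicle 1, at 4.14 CPM, lay inside the WT vehicle range of 4.07 to 6.40. Ddit3, a gene induced by endoplasmic reticulum stress, was at 26.2, 1.29 and 20.3 CPM in WT tunicamycin 1 to 3, against 0.640 to 1.89 in WT vehicle, so by this gene WT tunicamycin 2 lay at the vehicle level. By Fgb and Trf WT tunicamycin 3 did. Fgb, a fibrinogen chain, was at 3536, 3782 and 1191 CPM in WT tunicamycin 1 to 3 against 969.7 to 1355 in WT vehicle. Trf (transferrin) was at 4218, 5769 and 1904 CPM against 1835 to 1969. Lum, at 1.85 CPM in WT tunicamycin 3 against 0.728 to 2.03, went the same way. By Ctsl, Ppib, Emilin1, Mmp14, Mia2 and Gas1, also called for tunicamycin below, both libraries lay outside the WT vehicle range. Ctsl was at 140, 139 and 106.5 CPM in WT tunicamycin 1 to 3 against 72.3 to 80.4. All these genes were called with these same samples. Over all genes WT tunicamycin 3 also stood apart, with a chi-square per degree of freedom of 25.9 and 25.8 from the other two, which differed from each other by 6.23. Whether either of these libraries departs from its label was not settled, and counts are given without each. In LKO, Ddit3 was at 0.399, 0.390, 2.035 and 0.867 CPM in tunicamycin 1 to 4, against 0.580 ± 0.217 (SD, n = 3) with vehicle. That difference was not called (log2 0.67 ± 1.04 SE, adjusted p = 0.850), and its cause was not tested. By Fgb every LKO tunicamycin sample (1982 to 3569 CPM) lay above LKO vehicle (989.5 to 1905). The same held for Trf (3627 to 5418 against 1981 to 3453). The hepatocyte gene Alb, which encodes albumin, was at 9834.5 to 19071 CPM in the 13 samples.

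Most of the family was scarce. Of the 44 members, 19 passed the filter on low counts and were tested, 19 had from 1 to 99 reads over all libraries, and 6 had no read (Col2a1, Col6a4, Col9a1, Col10a1, Col11a1 and Col26a1). For the last group, 3 reads in all libraries, or 0.0260 CPM, is the limit that a count of 0 allows. In the authors' FPKM values, described below, Col10a1 was not absent, at 0 to 0.0748 over the samples, while the others of that group were at 0. Among the 19 tested were 7 fibrillar, 3 type IV and 9 other members, each with at least 80 reads. The filter asked for about 1.28 CPM in the number of samples of the smallest group, and Col5a2, Col6a2, Col12a1, Col6a6 and Col4a5 reached it in fewer than 3 WT samples. Such members entered through their LKO samples, so counts over the tested members are a description.

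Col18a1 dominated the family. It took 22225 of 34078 collagen reads, or 65.2%. Compared per length as FPKM (fragments scaled by gene length and depth), its level was 10.4 ± 0.453 in WT vehicle, 9.92 ± 2.14 in WT tunicamycin, 11.4 ± 1.39 in LKO vehicle and 13.4 ± 1.56 in LKO tunicamycin (SD, n = 3, 3, 3 and 4). The next member by FPKM, Col3a1, ranged from 0.277 to 1.87 over the 13 samples, and Col14a1, a collagen that sits on fibril surfaces, ranged from 0.588 to 1.42. Those ranges overlapped each other and lay below every Col18a1 value, the lowest of which was 7.53.

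**Figure D1:**
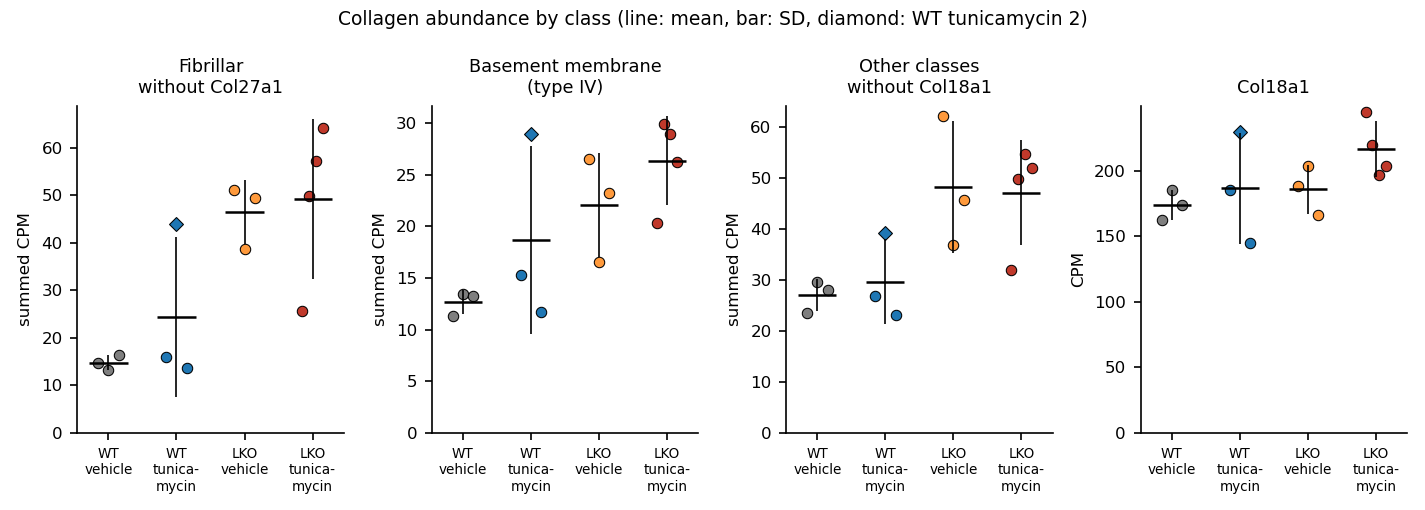
Collagen abundance in CPM (vertical axes, from 0) for each of 13 samples in 4 groups. Panels give the fibrillar members without Col27a1, the type IV members, the other members without Col18a1, and Col18a1, with a line at the mean, a bar for the SD and a diamond for WT tunicamycin 2. In the fibrillar panel the WT vehicle samples lie between 13.3 and 16.5 and the LKO vehicle samples between 38.7 and 51.1, while the Col18a1 ranges overlap.

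Livers with the deletion held more RNA of the fibril-forming and microfibrillar collagens. Averaged over treatments, 8 of the 19 tested members were higher in LKO than in WT and 0 were lower, where a call is an adjusted p (Benjamini-Hochberg, across the 9644 genes tested) under 0.05. The same test called 2.21% of all genes, 1.35% in the higher direction. The 8 were both chains of type I (Col1a1 and Col1a2), type III (Col3a1), chains of type V (Col5a1 and Col5a2), a type IV chain (Col4a2) and chains of type VI (Col6a2 and Col6a3). By class, 5 of 7 fibrillar, 1 of 3 type IV and 2 of 9 other members were called. Of the members called, Col5a2 and Col6a2 reached the filter in only 1 and 2 WT samples, against 7 LKO samples each. They entered through their LKO samples, so these counts are a description. The median log2 fold change was 0.89 over the 19, 1.36 over the fibrillar, 0.63 over the type IV and 0.66 over the other members, against -0.0041 over all genes.

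Over all fibrillar members the summed level ranged from 18.8 to 24.6 CPM in WT vehicle, 16.6 to 45.5 in WT tunicamycin, 41.3 to 54.4 in LKO vehicle and 29.9 to 66.6 in LKO tunicamycin. Col27a1, which went the other way, was then left out of the sum, a choice made after its values were seen. Without it the level was 14.6, 13.3 and 16.5 CPM in WT vehicle 1 to 3 and 15.9, 43.9 and 13.6 in WT tunicamycin 1 to 3. It was 51.1, 38.7 and 49.5 in the LKO vehicle samples and 25.7, 49.8, 57.3 and 64.2 in LKO tunicamycin 1 to 4. The vehicle groups did not overlap, and after tunicamycin WT sample 2 lay above LKO sample 1. Type VI chains together ran from 5.38 to 6.41 CPM in WT vehicle, 4.93 to 13.3 in WT tunicamycin, 14.3 to 25.7 in LKO vehicle and 12.1 to 25.3 in LKO tunicamycin. The share of collagen reads taken by Col18a1 was 73.7 ± 1.15% (SD, n = 3) for WT with vehicle and 72.0 ± 4.52% (n = 3) after tunicamycin, against 60.8 ± 6.41% (n = 3) for LKO with vehicle and 63.4 ± 7.89% (n = 4) after tunicamycin.

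Type I collagen, the main component of fibrils, is built from the products of Col1a1 and Col1a2. Col1a1 stood at 1.196, 1.15 and 1.60 CPM in WT vehicle and at 2.20, 8.26 and 1.54 in WT tunicamycin. It stood at 8.40, 6.78 and 9.71 CPM in LKO vehicle and at 3.46, 7.67, 10.4 and 11.5 in LKO tunicamycin. All LKO vehicle samples exceeded every WT vehicle sample, and WT tunicamycin 2 lay within the LKO range. Averaged over treatments Col1a1 was 3.68-fold higher in LKO (log2 fold change 1.88 ± 0.34 SE, adjusted p = 0.0101).

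Col1a2 gave 2.03, 2.30 and 2.62 CPM in WT vehicle and 3.30, 6.64 and 2.93 in WT tunicamycin. It gave 8.28, 7.58 and 11.7 CPM in LKO vehicle and 5.45, 9.35, 13.4 and 13.8 in LKO tunicamycin. Only WT tunicamycin 2 reached the LKO range, above LKO tunicamycin 1. The averaged difference was 3.17-fold (log2 1.67 ± 0.24 SE, adjusted p = 0.00252). Per length, the ratio of Col1a1 to Col1a2 in FPKM was 0.702 ± 0.166 in WT vehicle, 0.874 ± 0.480 in WT tunicamycin, 1.02 ± 0.224 in LKO vehicle and 0.886 ± 0.114 in LKO tunicamycin (SD, n = 3, 3, 3 and 4). The vehicle ranges did not overlap, with 0.879 as the highest WT value and 0.888 as the lowest LKO value, while the tunicamycin ranges did.

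Col3a1, whose chains form type III fibrils that often mix with type I, was the most abundant fibrillar member. It measured 5.38, 5.88 and 5.97 CPM in WT vehicle and 5.77, 20.1 and 6.16 in WT tunicamycin. It measured 21.8, 16.4 and 20.3 CPM in LKO vehicle and 9.18, 22.5, 21.4 and 29.1 in LKO tunicamycin. Apart from WT tunicamycin 2, the WT samples stayed between 5.38 and 6.16 CPM, below all LKO samples. The averaged difference was 2.58-fold (log2 1.36 ± 0.28 SE, adjusted p = 0.0173). Without WT vehicle 1 or without WT vehicle 2 this call was lost, at adjusted p = 0.0605 and 0.0515, with adjusted p from 9.07e-07 to 0.0681 over its 24 alternatives.

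Type V collagen sits in the core of type I fibrils and starts their assembly. Col5a1 was at 1.196, 1.54 and 1.02 CPM in WT vehicle, 1.65, 4.05 and 1.39 in WT tunicamycin, 4.38, 3.06 and 2.96 in LKO vehicle, and 2.26, 4.03, 3.76 and 4.12 in LKO tunicamycin. Col5a2 was at 0.478, 0.768 and 1.17 CPM in WT vehicle, 0.687, 2.91 and 0.616 in WT tunicamycin, 6.03, 1.60 and 2.78 in LKO vehicle, and 1.73, 4.03, 4.17 and 3.58 in LKO tunicamycin. For both genes the vehicle groups did not overlap and WT tunicamycin 2 lay inside the LKO range. The averaged differences were 2.02-fold for Col5a1 (log2 1.02 ± 0.25 SE, adjusted p = 0.0428) and 3.19-fold for Col5a2 (log2 1.68 ± 0.41 SE, adjusted p = 0.0428). These were close to the threshold, and the call was lost without any of 10 of the 13 samples for Col5a1 and 9 of the 13 for Col5a2. Col3a1 and Col5a2 are neighbours on chromosome 1, 24624 bases apart.

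**Figure D2:**
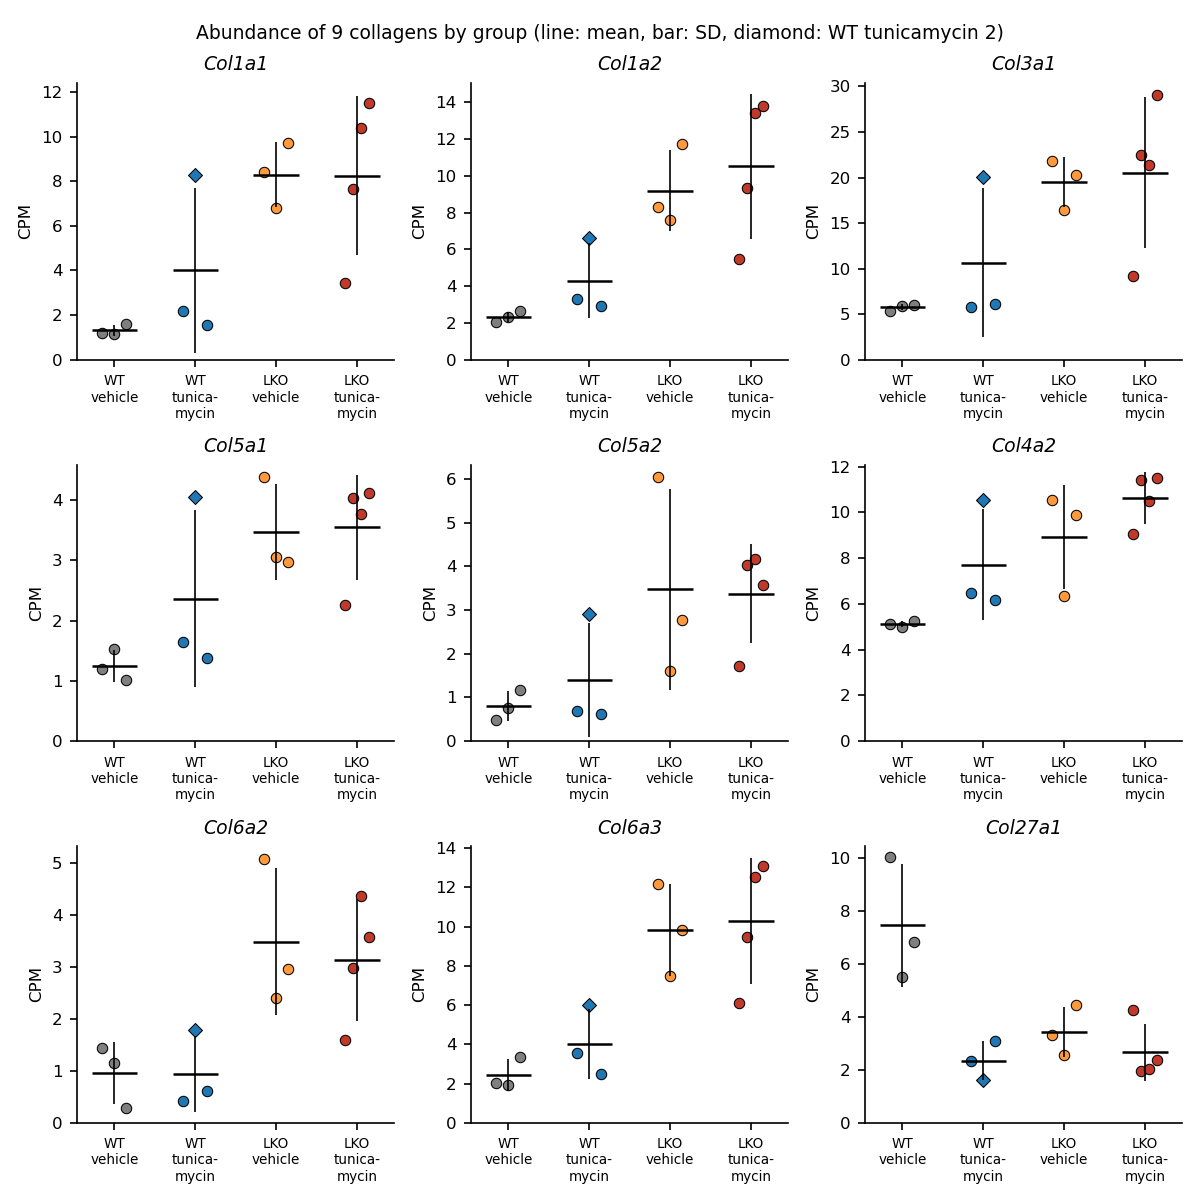
Normalised abundance in CPM (vertical axes, from 0) of the 8 members higher in LKO and of Col27a1, for each of 13 samples in 4 groups. The line is the mean, the bar the SD, and the diamond is WT tunicamycin 2, which at 8.26 CPM of Col1a1 and 20.1 CPM of Col3a1 stands among the LKO samples.

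The other 2 tested fibrillar members did not pass. Col5a3, a further type V chain, was at 4.07, 1.54 and 3.93 CPM in WT vehicle, 2.06, 1.62 and 0.770 in WT tunicamycin, 2.25, 2.92 and 1.72 in LKO vehicle and 3.33, 2.08, 3.87 and 1.84 in LKO tunicamycin. The genotypes overlapped, with an averaged log2 difference of 0.21 ± 0.28 SE (adjusted p = 0.751). Col27a1, a fibrillar collagen best known from cartilage, had an averaged log2 difference of -0.48 ± 0.23 SE (adjusted p = 0.290), and its response to tunicamycin is given below.

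Type VI collagen was represented by 4 tested chains, and 2 passed. Col6a3, the largest chain, gave 2.03, 1.92 and 3.35 CPM in WT vehicle, 3.57, 5.99 and 2.47 in WT tunicamycin, 12.2, 7.51 and 9.83 in LKO vehicle, and 6.12, 9.48, 12.5 and 13.1 in LKO tunicamycin. It was the only tested member with every LKO sample above every WT sample, a pattern that 0.674% of all genes showed in that direction. Its averaged difference was 3.25-fold (log2 1.70 ± 0.23 SE, adjusted p = 0.00252).

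Col6a2 gave 1.44, 1.15 and 0.291 CPM in WT vehicle, 0.412, 1.78 and 0.616 in WT tunicamycin, 5.09, 2.40 and 2.96 in LKO vehicle, and 1.60, 2.99, 4.37 and 3.58 in LKO tunicamycin. The averaged difference was 3.41-fold (log2 1.77 ± 0.35 SE, adjusted p = 0.0162), with overlap between WT tunicamycin 2 and LKO tunicamycin 1 only. Its neighbour Col6a1, 85387 bases away on chromosome 10, was at 1.31, 2.05 and 2.18 CPM in WT vehicle and 6.86, 2.84 and 3.20 in LKO vehicle, with an averaged log2 difference of 1.002 ± 0.30 SE that did not pass (adjusted p = 0.0909). It passed in 4 of 23 alternatives: DESeq2, no filter, without WT tunicamycin 2 and without LKO tunicamycin 1 (adjusted p from 0.00490 to 0.310 over alternatives). Col6a6 had an averaged log2 difference of 0.89 ± 0.37 SE (adjusted p = 0.197).

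Of the 3 tested type IV chains, which form basement membranes, 1 passed. Col4a2 was at 5.14, 4.99 and 5.24 CPM in WT vehicle, 6.46, 10.5 and 6.16 in WT tunicamycin, 10.5, 6.34 and 9.89 in LKO vehicle, and 9.05, 11.4, 10.5 and 11.5 in LKO tunicamycin. The vehicle groups did not overlap, and the averaged difference was 1.55-fold (log2 0.63 ± 0.15 SE, adjusted p = 0.0391). This call was lost without any of 10 of the 13 samples, with adjusted p from 0.00284 to 0.0947 over alternatives. Col4a1, which lies head to head with Col4a2 on chromosome 8 with 2 bases between the annotated genes, was at 5.38, 6.65 and 7.43 CPM in WT vehicle, 8.52, 18.1 and 4.62 in WT tunicamycin, 13.5, 9.84 and 10.8 in LKO vehicle, and 9.18, 17.2, 16.1 and 13.8 in LKO tunicamycin. Its averaged log2 difference was the same size, 0.63 ± 0.23 SE, and did not pass (adjusted p = 0.148). It passed without WT tunicamycin 2, at log2 0.94 and adjusted p = 0.00889.

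Col4a5 was the scarcest tested member, at 3, 7 and 2 reads in WT vehicle, 1 read in each WT tunicamycin sample, 13, 1 and 19 reads in LKO vehicle and 11, 2, 14 and 5 in LKO tunicamycin. Its averaged log2 difference of 1.62 ± 0.67 SE did not pass (adjusted p = 0.189). It had the largest log2 fold change of all members in 3 comparisons: -1.70 ± 1.28 SE for tunicamycin in WT, 2.52 ± 1.07 SE for LKO against WT after tunicamycin, and 1.81 ± 1.43 SE for the interaction, none of which passed.

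None of the remaining tested members passed between genotypes. Col18a1 stood at 162.6, 185.5 and 173.5 CPM in WT vehicle, 185.1, 229.7 and 144.7 in WT tunicamycin, 188.3, 203.1 and 165.8 in LKO vehicle, and 244.6, 219.8, 196.4 and 203.7 in LKO tunicamycin. The genotypes overlapped, and the averaged log2 difference was 0.15 ± 0.11 SE (adjusted p = 0.499). Col14a1 stood at 11.96, 18.2 and 15.4 CPM in WT vehicle, 12.5, 19.1 and 12.6 in WT tunicamycin, 26.9, 14.8 and 20.6 in LKO vehicle, and 12.6, 22.1, 20.6 and 18.8 in LKO tunicamycin, with a log2 difference of 0.39 ± 0.16 SE (adjusted p = 0.219). Col15a1, a relative of Col18a1 in vessel and muscle basement membranes, had 0.18 ± 0.20 SE, Col12a1, another collagen of fibril surfaces, 0.66 ± 0.31 SE, and Col13a1, a transmembrane collagen, -0.12 ± 0.29 SE, and none passed.

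**Figure D3:**
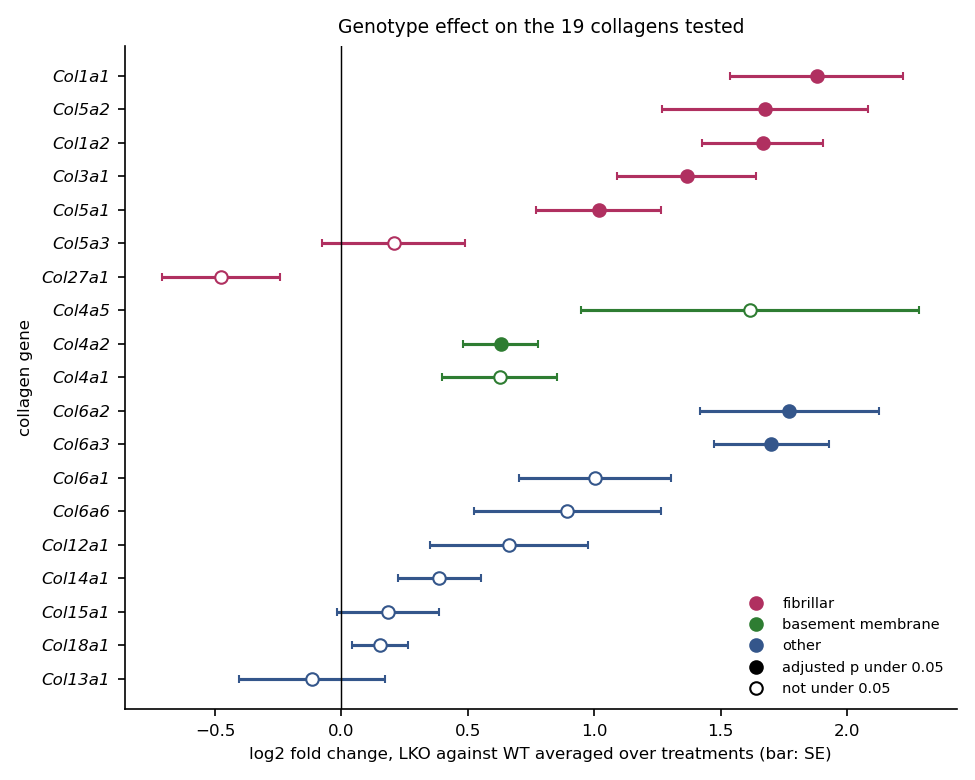
Log2 fold change of LKO against WT averaged over treatments (horizontal axis, bars are SE) for the 19 tested members (vertical axis), coloured by class, with filled points where the adjusted p is under 0.05. Fibrillar and type VI members reach 1.88, while Col18a1 lies at 0.15 and Col27a1 at -0.48.

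Within each treatment the same comparison had fewer samples. With vehicle, Col6a3 alone was called (log2 2.01 ± 0.33 SE, adjusted p = 0.0361), against 0.0415% of all genes, 0.0311% higher and 0.0104% lower. The largest difference there was that of Col1a1, at log2 2.66 ± 0.53 SE (adjusted p = 0.0796), followed by Col5a2 at 2.04, Col6a3 at 2.01 and Col1a2 at 2.01 (adjusted p = 0.0547). Of the 19 tested members, 11 had every LKO vehicle sample above every WT vehicle sample, against 7.5% of all genes, and 1 member (Col27a1) had every LKO sample below, against 7.6%. After tunicamycin Col6a3 was again the only call (log2 1.39 ± 0.30 SE, adjusted p = 0.0440), against 0.861% of all genes. Then 2 members had all LKO samples above all WT samples, against 6.34% of all genes, and 0 had all below, against 6.58%. The Col6a3 call with vehicle was lost without any of 6 of the 13 samples, WT vehicle 1, 2 or 3, LKO vehicle 1, LKO vehicle 3 and 4, or LKO tunicamycin 2, and that after tunicamycin without any of 8, WT vehicle 1, 2 or 3, WT tunicamycin 1 or 3, or LKO tunicamycin 2, 3 or 4 (adjusted p up to 0.491 and 0.185 over alternatives).

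Counts after tunicamycin depended on single WT libraries. WT tunicamycin 2 was the highest WT sample in 12 of the 19 tested members, and LKO tunicamycin 1 was the lowest LKO sample in 10. Without WT tunicamycin 2, 6 members were called after tunicamycin in place of 1: Col1a1, Col1a2, Col3a1, Col4a1, Col6a2 and Col6a3. The Col1a1 difference after tunicamycin moved from log2 1.10 to 2.15, and that of Col3a1 from 0.97 to 1.79. Averaged over treatments, 10 members were called without that library, the 8 named above with Col4a1 and Col6a1. Without WT tunicamycin 3 in its place, 5 members were called averaged over treatments (Col1a1, Col1a2, Col3a1, Col6a2 and Col6a3), 0 after tunicamycin and 3 with vehicle (Col1a1, Col1a2 and Col6a3). With WT tunicamycin 2 and LKO vehicle 1 both left out, a setting chosen after the data were seen, 9 members were called averaged over treatments, 7 after tunicamycin and 3 with vehicle.

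A single tested member was called for tunicamycin. In WT livers Col27a1 was lower after tunicamycin, the only 1 of 19 called, against 0.363% of all genes and 0.0726% in the lower direction. Col27a1 was at 10.0, 5.50 and 6.85 CPM in WT vehicle and 2.34, 1.62 and 3.08 in WT tunicamycin. In LKO livers it was at 3.31, 2.55 and 4.44 CPM with vehicle and 4.26, 1.95, 2.03 and 2.38 after tunicamycin. All WT vehicle samples exceeded every other sample, and the other 3 groups overlapped. Of the 19 members, 2 were without overlap upward in WT after tunicamycin and 2 downward, against 8.62% and 8.68% of all genes.

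The fall of Col27a1 in WT was to 0.32-fold (log2 -1.67 ± 0.33 SE, adjusted p = 0.0400). In LKO the change was log2 -0.41 ± 0.30 SE (adjusted p = 0.640), and the difference between the responses, 1.26 ± 0.46 SE, did not pass (adjusted p = 0.937). Averaged over genotypes Col27a1 fell by 1.04 on the log2 scale (SE 0.23, adjusted p = 0.0197), again the only member called, where 4.31% of all genes were called, 2.15% lower and 2.17% higher. The WT call was lost without any of 8 of the 13 samples: WT vehicle 1, 2 or 3, WT tunicamycin 1 or 2, or LKO tunicamycin 2, 3 or 4 (log2 from -1.90 to -1.40 without 1 sample, adjusted p up to 0.226 over alternatives); DESeq2 gave it no adjusted p. Without WT tunicamycin 3 the averaged comparison called 3 members, Col27a1, Col15a1 and Col4a1. The averaged call of Col27a1 was lost without WT vehicle 1, WT tunicamycin 1, WT tunicamycin 2 or LKO vehicle 3 and 4 (log2 from -1.19 to -0.90 without 1 sample, adjusted p up to 0.0785).

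No other member passed for tunicamycin. In LKO livers 0 of 19 were called by edgeR and 0 by DESeq2, where edgeR called 0.0311% of all genes, 0.0207% higher and 0.0104% lower, and 1 member, Col15a1, had an unadjusted p under 0.05. Col15a1 was at 1.42, 2.77 and 1.72 CPM in LKO vehicle and 3.19, 3.64, 4.07 and 3.04 in LKO tunicamycin, with every tunicamycin sample above every vehicle sample, a pattern 5.03% of all genes showed; 0 members showed the opposite, against 6.55%. Its log2 fold change was 0.79 ± 0.25 SE (adjusted p = 0.247), and in WT, at 2.27, 1.92 and 1.60 CPM with vehicle and 3.71, 2.59 and 2.003 after tunicamycin, it was 0.52 ± 0.31 SE (adjusted p = 0.470).

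The fibrillar members that were higher in LKO had positive but uncalled tunicamycin differences in WT, which were smaller without WT tunicamycin 2. For Col1a1 the WT difference was log2 1.57 ± 0.62 SE (adjusted p = 0.237) with that library and 0.53 without it, and for Col3a1 it was 0.87 and 0.06. For Col1a2 it was 0.87 and 0.44, and all 3 WT tunicamycin samples lay above the WT vehicle samples. For Col5a1 it was 0.88 and 0.28, and for Col5a2 0.79 and -0.26. In LKO the corresponding values were 0.01 ± 0.35 SE for Col1a1 and 0.09 ± 0.33 SE for Col3a1. The interaction called 0 members with edgeR and with DESeq2, and 0 of all genes, where 3 members and 474 genes had an unadjusted p under 0.05, and the smallest adjusted p of a member was 0.937. The 19 tested members had a median tunicamycin log2 fold change of 0.52 in WT and 0.11 in LKO, against 0.0137 and 0.0045 over all genes.

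**Figure D4:**
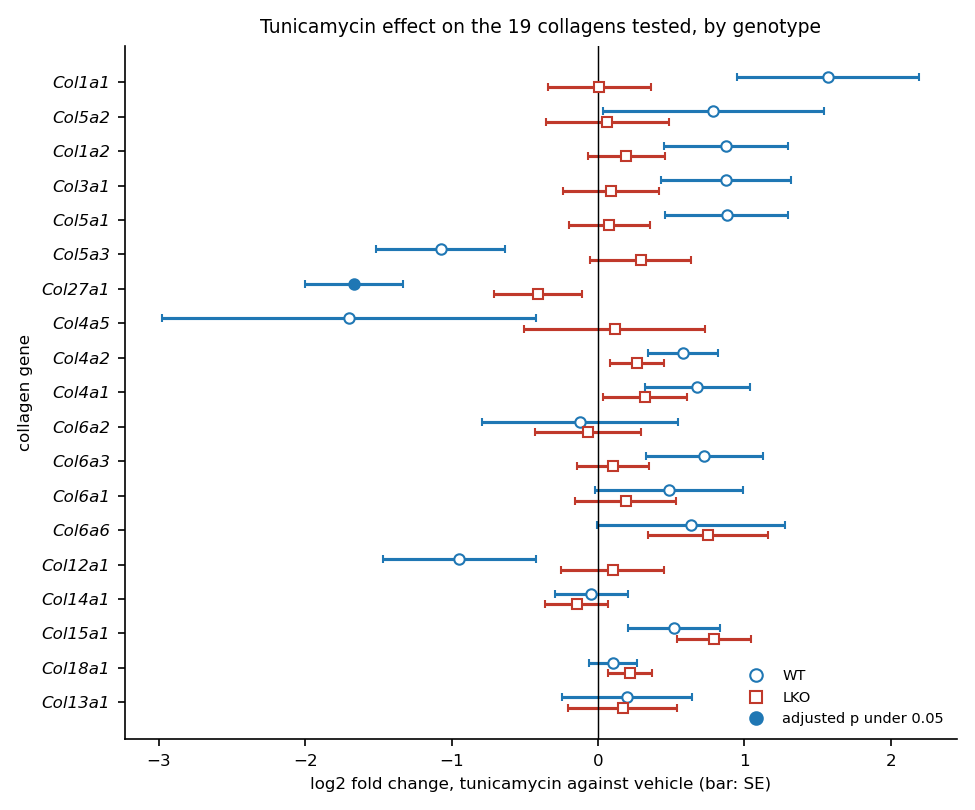
Log2 fold change of tunicamycin against vehicle (horizontal axis, bars are SE) for the 19 tested members (vertical axis), in WT (circles) and LKO (squares), with a filled point where the adjusted p is under 0.05. Col27a1 in WT, at -1.67, is the only filled point, and most LKO values lie near 0.

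Of the 25 members not tested, a few showed reads mainly in LKO. Col6a5, a further type VI chain, had 1 read in WT vehicle, 5 in WT tunicamycin, 33 in LKO vehicle and 16 in LKO tunicamycin, and it was called in the averaged comparison when no filter was applied. Col8a1, a network-forming collagen of vessel walls, had 8, 8, 36 and 26 reads in the same order. Col25a1, a transmembrane collagen, had 12, 6, 52 and 29 reads, of which 34 came from LKO vehicle 1 and 10 from WT vehicle 3. The other untested members with reads had at most 62 in all.

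Genes that fold, modify, export, trim or cross-link collagen chains mostly did not pass between genotypes. Of 12 tested genes of the folding and modification list, 0 were called in the averaged genotype comparison, against 2.21% of all genes (median log2 0.02). P4hb, 1 of its 2 most abundant genes and a subunit of prolyl hydroxylase, had -0.12 ± 0.10 SE. Ppib, a prolyl isomerase that helps collagen fold, rose with tunicamycin averaged over genotypes (log2 0.45, adjusted p = 0.0369, lost without any of 9 of the 13 samples). It was 1 of 12 called, against 4.31% of all genes. Of 9 tested genes of export, trimming and cross-linking, 2 were higher in LKO and 1 lower averaged over treatments, against 1.35% and 0.861% of all genes. Adamts2, which removes the amino-terminal propeptide of fibrillar procollagens, was higher by log2 1.22 ± 0.30 SE (adjusted p = 0.0443), and Pcolce, which enhances carboxy-terminal propeptide removal, by 1.43 ± 0.30 SE (adjusted p = 0.0228). Adamts2 ranged from 0.598 to 1.46 CPM in WT and Pcolce from 0.598 to 2.27. Both reached the filter of about 1.28 CPM in fewer than 3 WT samples and in every LKO sample. They entered through their LKO samples, so the count of genes higher in LKO is a description. The Adamts2 call was lost without any of 9 of the 13 samples (adjusted p up to 0.123 over alternatives) and that of Pcolce without any of 4 (up to 0.0746). Sec24d, a coat protein of the vesicles that carry procollagen out, was lower, at -0.54 ± 0.11 SE (adjusted p = 0.0162), and lost its call without either of 2 samples (up to 0.183). With tunicamycin averaged over genotypes 1 of the 9 was called, against 4.31% of all genes. It was Mia2, a partner of the export receptor, lower by log2 -0.37 ± 0.08 SE (adjusted p = 0.0225). The Mia2 call was lost without any of 5 of the 13 samples (adjusted p up to 0.0954 over alternatives).

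Among 21 tested matrix partners, 4 were higher in LKO averaged over treatments, against 1.35% of all genes. The median over the 21 was log2 0.38, against -0.0041 over all genes. Fbn1, the microfibril protein fibrillin, differed by 1.28 ± 0.19 SE (adjusted p = 0.00252), Lum, a proteoglycan of fibrils, by 1.26 ± 0.25 SE (adjusted p = 0.0146), Tnxb, a tenascin that binds fibrils, by 1.13 ± 0.19 SE (adjusted p = 0.00840), and Nid1, a linker of laminin and type IV networks, by 0.93 ± 0.14 SE (adjusted p = 0.00468). The abundant partners Fn1 (fibronectin) and Dcn (decorin) had 0.15 ± 0.19 SE and 0.31 ± 0.12 SE and did not pass. None of 10 tested genes of breakdown and uptake (median 0.25), of 5 receptors (0.39) and of 12 genes of TGF-beta signalling (0.16) was called between genotypes averaged over treatments. After tunicamycin 2 of the 21 partners were higher in LKO, against 0.311% of all genes. They were Nid1, by 1.10 ± 0.20 SE (adjusted p = 0.0189), and Tnxb, by 1.34 ± 0.27 SE (adjusted p = 0.0335), with calls lost without any of 3 and of 6 samples.

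With tunicamycin averaged over genotypes, where 4.31% of all genes were called, 2 of 10 breakdown genes and 2 of 21 partners were higher. Ctsl, a lysosomal protease, rose by log2 0.55 ± 0.11 SE (adjusted p = 0.0161), and Mmp14, a membrane collagenase, by 0.62 ± 0.14 SE (adjusted p = 0.0221). Lum rose by 0.93 ± 0.25 SE (adjusted p = 0.0461), and Emilin1, a glycoprotein of elastic fibres, by 0.75 ± 0.13 SE (adjusted p = 0.0124). The Lum call was lost without any of 10 of the 13 samples, that of Mmp14 without any of 5, that of Ctsl without 1, and that of Emilin1 in 0 of the 13 cases. In WT alone Ctsl, 1 of 10 called against 0.363% of all genes, rose by 0.75 ± 0.16 SE (adjusted p = 0.0468), lost without any of 10 samples.

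Markers of the cell types that make collagen were read the same way. Of 11 tested markers of stellate cells and fibroblasts, 3 were higher in LKO averaged over treatments, against 1.35% of all genes. The median over the 11 was log2 0.36, against -0.0041 over all genes. The 3 were Dpt by 1.42 ± 0.26 SE (adjusted p = 0.0101), Pdgfrb by 1.10 ± 0.22 SE (adjusted p = 0.0162) and Cygb by 0.96 ± 0.23 SE (adjusted p = 0.0430). Dpt ranged from 0.359 to 1.78 CPM in WT and from 1.84 to 3.36 in LKO. It reached the filter of about 1.28 CPM in fewer than 3 WT samples and entered through its LKO samples, so the count of 3 is a description. The Cygb call was lost without any of 10 of the 13 samples (adjusted p up to 0.107 over alternatives), that of Pdgfrb without either of 2, and that of Dpt in 0 of the 13 cases. All 14 had reads, and their summed level ranged from 56.8 to 90.8 CPM in WT vehicle, 70.2 to 88.2 in WT tunicamycin, 80.2 to 108 in LKO vehicle and 75.4 to 117 in LKO tunicamycin. Pdgfrb, the receptor of stellate cells and pericytes, was at 0.956, 0.896 and 1.75 CPM in WT vehicle and 2.72, 3.35 and 2.73 in LKO vehicle. After tunicamycin it was at 1.51, 2.91 and 2.31 CPM in WT and at 3.19, 3.12, 4.48 and 5.53 in LKO. The part of these cells in the collagen differences was not tested.

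Other markers gave 1 call more in that direction, in which 1.35% of all genes were called. Of 3 tested bile duct markers, Spp1, which other liver cells also make, was higher in LKO by log2 1.79 ± 0.39 SE (adjusted p = 0.0270, lost without any of 4 samples). Pkhd1 (0.62 ± 0.20 SE, adjusted p = 0.107) and Sox9 (0.15 ± 0.25 SE, adjusted p = 0.809) did not pass, and the duct keratin Krt19 had 29 reads in all. The 8 markers summed to 11.7 to 15.9 CPM in WT vehicle, 12.6 to 46.2 in WT tunicamycin, 22.5 to 59.4 in LKO vehicle and 40.9 to 119 in LKO tunicamycin. Spp1 alone gave 4.37 to 9.57, 5.86 to 35.6, 12.1 to 50.9 and 31.1 to 105 CPM in the same order, so changes in the sum follow this 1 gene. None of 12 endothelial (median 0.02), 10 Kupffer cell and macrophage (0.12), 3 portal fibroblast and smooth muscle (0.42) and 1 lymphocyte markers was called between genotypes averaged over treatments, and none of the mesothelial, adipocyte or muscle markers had enough reads to be tested. The muscle genes Ckm, Acta1 and Myh4 had 0 reads in all libraries. Of 9 hepatocyte markers, 2 were lower in LKO averaged over treatments, against 0.861% of all genes. They were Serpina1c and Hnf4a, by log2 -0.43 ± 0.11 SE (adjusted p = 0.0480) and -0.34 ± 0.09 SE (adjusted p = 0.0475). These calls were lost in 18 and 19 of 24 alternatives, 11 and 10 of them without 1 sample. Hnf4a was also lower after tunicamycin (-0.54 ± 0.12 SE, adjusted p = 0.0405, lost without any of 9 samples). With tunicamycin averaged over genotypes 4.31% of all genes were called. Of the 9 hepatocyte markers, Fgb and Trf were higher there, by log2 1.16 ± 0.25 SE (adjusted p = 0.0190) and 0.96 ± 0.22 SE (adjusted p = 0.0227). Of the 3 portal fibroblast and smooth muscle markers, Gas1 was lower, at -0.93 ± 0.23 SE (adjusted p = 0.0314). Those calls were lost without any of 3, 7 and 9 samples.

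**Figure D5:**
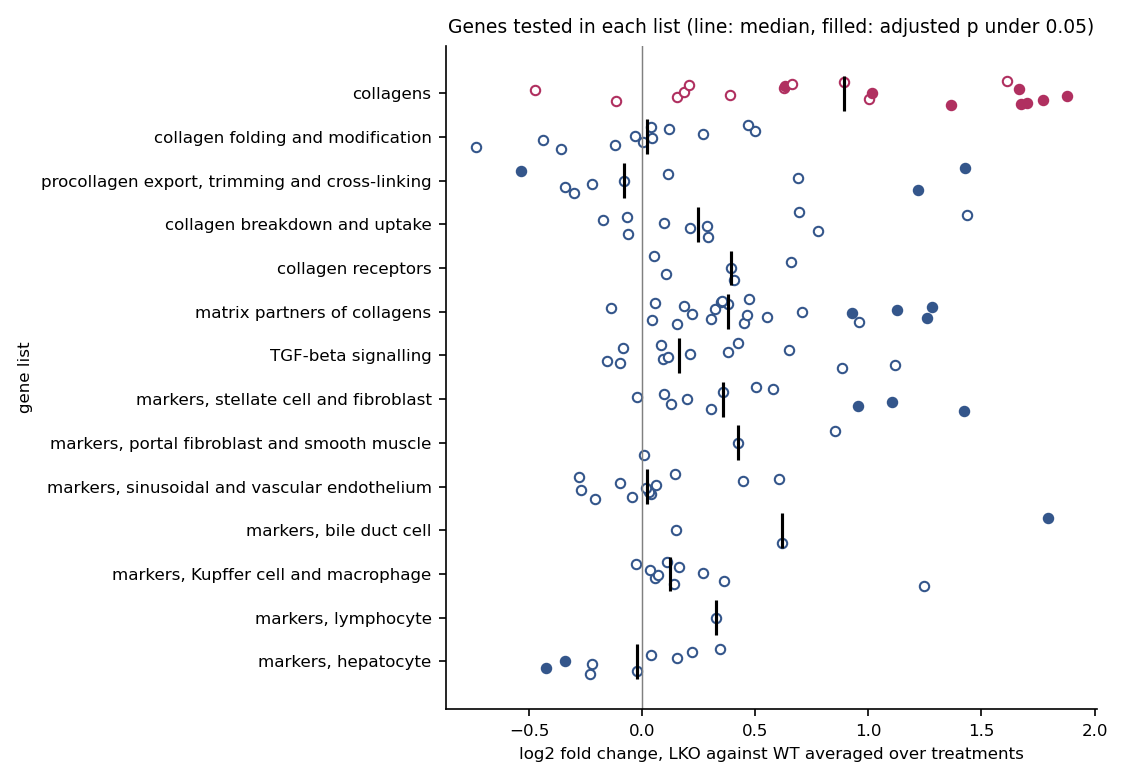
Log2 fold change of LKO against WT averaged over treatments (horizontal axis) for each tested gene (points) of the collagens, the 6 lists of collagen-related genes and the cell type marker lists (vertical axis). Filled points have an adjusted p under 0.05 and lines are medians. The collagens have a median of 0.89, the matrix partners 0.38 and the endothelial markers 0.02.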

How the data were processed

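Liver RNA of 14 libraries was analysed. The authors deposited STAR tables of whole read counts per gene, of which the column on the gene's strand was used. Rows that name no gene (unmapped, multimapping, outside genes or ambiguous) held 61.3 to 69.0% of that column and were left out. The authors also deposited FPKM values in a table with Cufflinks column names, used here for levels per length and alternatives, and gene positions are those of that table (start moved to 1-based); 277 gene names with more than 1 FPKM entry were left out. The submitters' processing notes name Trimmomatic, STAR, Cufflinks and the build mm10; versions, settings and annotation are not given in the sources used here. The labels give 1 replicate number per library and do not say how mice map to numbers, so p-values measure the spread between these samples.

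LKO vehicle libraries 3 and 4 differed by a chi-square of 1.12 per degree of freedom, against 3.38 to 25.9 in the other 17 pairs within groups, and were summed, which left 13 samples. Counts were fitted with edgeR 4.0.16 in R 4.3.3 (TMM, filterByExpr by group, quasi-likelihood test, 1 mean per group). It tested 9644 genes with 9 residual degrees of freedom and a common biological coefficient of variation of 0.155. The call threshold was an adjusted p of 0.05 (Benjamini-Hochberg across all tested genes). The script was tested on simulated data. Of 7 contrasts, 2 averaged the genotype or treatment effect over the other factor with equal weights. CPM used the TMM library sizes.

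Values in every sample are given for members called in any contrast, for the 3 most abundant tested members of each class and for the member with the largest change in each contrast; genes of other lists are named where called, and some of the 2 most abundant of each list are named too, beside Krt19, the muscle genes at 0 reads, Ddit3 and members described after their values were seen (Col6a1, Col6a5, Col8a1, Col25a1 and others without a call). Members, classes and lists were chosen with earlier results of these data known. Alternatives were DESeq2 1.42.0, total count scaling, TMM without Rn45s and Lars2, no filter, 10 reads in 10 samples, 14 libraries, strand ignored, FPKM with limma 3.58.1 and pseudocounts of 1 and 0.1, a replicate block, and each sample left out. Replicate numbers did not pair samples. Per-sample columns not used numbered 0.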

Additional observations from a re-analysis of the deposited data

How the results depend on the processing

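Over 24 alternatives the number of collagens called in LKO against WT averaged over treatments (8) ranged from 0 to 11. It was 0 with log2(FPKM + 1), 3 with filtered log2(FPKM + 0.1), where 7 members were tested, and 5 with the replicate block, and leaving out 1 sample gave 4 to 10. It was 4 without WT vehicle 1 or 2, and 5 without WT vehicle 3, WT tunicamycin 1 or 3, LKO vehicle 1 or LKO tunicamycin 2, 3 or 4. Leaving out a sample also lowers the residual degrees of freedom. Col1a1, Col1a2, Col6a2 and Col6a3 kept the averaged call without each of the 13 samples in turn and lost it with log2(FPKM + 1), a scale that understates low genes.

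With vehicle the count (1) was 3 with DESeq2, 2 with total count scaling, 8 with no filter, 2 with 10 reads in 10 samples, 3 with 14 libraries, 0 with both FPKM settings, 0 with the replicate block and 3 with LKO vehicle 1 and WT tunicamycin 2 both left out (chosen after seeing the data), and leaving out 1 sample gave 0 to 4 (4 without WT tunicamycin 2, 3 without WT tunicamycin 3 or LKO tunicamycin 1, 2 without LKO tunicamycin 3). After tunicamycin the count (1) was 3 with DESeq2, 2 with total count scaling, 5 with no filter, 2 with 14 libraries, 0 with both FPKM settings, 0 with the replicate block and 7 with both libraries left out, and leaving out 1 sample gave 0 to 6 (6 without WT tunicamycin 2, 2 without LKO vehicle 3 and 4 or LKO tunicamycin 1).

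For tunicamycin in WT the count (1) was 0 with DESeq2, which gave Col27a1 no adjusted p, 2 with no filter, 0 with both FPKM settings and 0 with both libraries left out, and 0 to 1 without 1 sample. Averaged over genotypes the count (1) was 0 with both FPKM settings and 0 with both libraries left out, and 0 to 3 without 1 sample (3 without WT tunicamycin 3, 2 without LKO vehicle 2). For tunicamycin in LKO and the interaction it was 0 in all 24 alternatives.

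The sign changed in 6 cases, none called. The averaged genotype difference of Col13a1 was 0.0220 with log2(FPKM + 1) and ranged from -0.394 (without LKO vehicle 3 and 4, followed by -0.234 without WT vehicle 1) to 0.0242 (without LKO vehicle 1) without 1 sample. That of Col27a1 after tunicamycin was -0.0263 with log2(FPKM + 1) and -0.0384 with both libraries left out, and ranged from -0.143 to 0.382 without 1 sample, below 0 without WT tunicamycin 2 (-0.0392) or LKO tunicamycin 1 (-0.143). Where no value above shows it, the cause was not tested.

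Counts over all genes ranged over alternatives from 0 to 615 for tunicamycin in WT (35), 0 to 153 in LKO (3), 0 to 84 for genotype with vehicle (4), 0 to 261 after tunicamycin (83), 0 to 2 for the interaction (0), 43 to 514 for genotype averaged (213) and 19 to 1085 for tunicamycin averaged (416). Deviations of same-numbered samples correlated from -0.118 to 0.141 (18 pairs, 3 over 0.1), so the pairing was not used.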
